A study of Mus musculus with 29 samples.

Results

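The 35 genes described here mark B cell development from its first priming to the mature, naive B cell, and their levels were compared in HSCs between young and old, WT and GADD45B knockout mice. They were taken by symbol from the 55376 gene symbols counted in each RNA-seq library, all 35 were found, and all 35 passed the filter on low counts that left 33690 genes for testing. They fall into 3 lists. The early list has 7 genes of lymphoid priming, V(D)J recombination and the pre-B receptor. The throughout list has 16 genes used over several stages, and the mature list has 12 genes that come up in the mature B cell. The study asked what GADD45B, a stress-inducible protein tied to active DNA demethylation, does in the aging of HSCs. Its RNA-seq files hold 19 libraries, 4 of young WT (YWT), 4 of old WT (OWT), 4 of young knockout (YKO) and 7 of old knockout (OKO) HSCs. The labels give the genotypes as WT and Gadd45KO, the ages only as young and old, and the sex as female throughout, while the study's methods state that both sexes entered its data sets. The knockout is carried in the germline and so is not limited to HSCs, and no other allele or agent is named for any group. The cells were sorted as negative for lineage antibodies and CD34 and Flk2, and positive for cKit, Sca1 and CD150. The lineage antibodies include B220, the marker by which B cells are removed, and IL7ra. The number of mice behind a library is not given in the sources used here, so p-values measure only the spread between these libraries.

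B cells form from HSCs through lymphoid progenitors in which Dntt, the Rag genes and Ly6d come on first. Ebf1 and Pax5 then fix the B cell program, and the pre-B cell carries a receptor made of the Ighm heavy chain with the surrogate light chains Vpreb1 and Igll1. The mature naive B cell shows IgM and IgD side by side and adds surface receptors such as Cd22, Fcer2a, Cr2 and Cxcr5. A plasma cell, which secretes antibody, turns most of those receptors off and keeps its immunoglobulin genes at a very high level. HSCs themselves lie before the whole series and are not known for any of its surface receptors.

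Letters recognised by factors of this lineage stand close to the start of a few of the genes. RefSeq promoter windows on GRCm38.p6, of which the 250 bases before the gene start were searched, cover 26 of the 35 genes. Ly6d, Ikzf3, Cd79b, Ighm, Blk, Ighd, Ms4a1, Cxcr5 and Cd40 had no window. On either strand, the octamer ATGCAAAT bound by Pou2f2 with its coactivator Pou2af1 was found before Vpreb3 and Blnk, and in 1.6% of 32851 windows of all genes. The letters TCCCNNGGGA of an Ebf1 site were found before Cd22 alone, and in 0.779% of all windows. The E-box CACCTG, bound by E proteins such as Tcf3, was found before 12 of the 26 genes and in 17.2% of all windows. None of these motifs overlapped another here, and a match of letters is a description and not a site in use. The 150 bases before the start of 4 genes are shown 5′ to 3′ in the direction of the gene, with matches to these motifs in capitals, for a mature receptor with the largest fall in knockout HSCs, for the pair of genes with an octamer, and for the pre-B receptor gene with the largest positive difference in OWT vs YWT.
Cd22 (chr7:30879029-30879178, - strand): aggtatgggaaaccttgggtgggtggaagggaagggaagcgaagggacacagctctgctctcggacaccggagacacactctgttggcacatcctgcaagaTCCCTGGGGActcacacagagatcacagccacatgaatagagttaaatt
Vpreb3 (chr10:75948150-75948299, + strand): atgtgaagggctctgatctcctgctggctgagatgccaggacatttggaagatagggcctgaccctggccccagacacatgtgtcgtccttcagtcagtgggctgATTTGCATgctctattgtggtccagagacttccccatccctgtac
Blnk (chr19:40994222-40994371, - strand): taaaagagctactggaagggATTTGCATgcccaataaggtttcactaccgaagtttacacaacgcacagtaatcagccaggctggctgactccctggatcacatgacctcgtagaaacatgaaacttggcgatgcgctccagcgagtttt
Igll1 (chr16:16863986-16864135, - strand): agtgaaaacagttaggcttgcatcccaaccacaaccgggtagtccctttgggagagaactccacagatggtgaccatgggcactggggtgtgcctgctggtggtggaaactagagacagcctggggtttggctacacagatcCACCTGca
The capitals mark the Ebf1 letters in Cd22 at 49 to 40 bases before the RefSeq start, the octamer on the opposite strand in Vpreb3 at 45 to 38 and in Blnk at 130 to 123, and the E-box in Igll1 at 8 to 3. In GENCODE, the source of the other gene positions here, Cd22, Vpreb3 and Blnk begin further upstream. Their windows therefore lie inside the GENCODE genes, and only that of Igll1 lies before its GENCODE start.

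Library totals ran from 22197555 to 77970627 counts, and the immunoglobulin genes together took from 0.0889% of a library (OKO1) to 28.6% (YWT2). The 8 HSC markers, among them Procr and Mecom, summed to between 2017 and 4226 CPM (read counts scaled to library size with the TMM factors of edgeR) in all 19 libraries. Batches were set from the sample titles, where OWT and OKO4 to OKO7 share a prefix (here batch 2) that YWT, YKO and OKO1 to OKO3 lack (here batch 1). The study's sample list gives the same batches for YWT, YKO and OKO, but it spreads 12 old WT samples over batches 2 and 3 under numbers that could not be matched to these titles, so OWT stands in batch 2 by its title prefix alone. In WT HSCs, therefore, age cannot be told apart from batch. Gadd45b was counted in all 19 libraries, and which part of it the knockout deletes is not given in the sources used here. It was 10.5 ± 4.69 CPM (SD, n = 4) in YWT and 9.53 ± 4.64 (SD, n = 4) in YKO, which overlapped, so the libraries labelled YKO are taken by their label. In OKO it was 4.45 ± 1.39 CPM (SD, n = 7), below each OWT library.

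Over both batches together, the mature list separated young from old libraries and the early list did not. As the mean log2(CPM + 1) over its genes, the mature list stood at 4.18 ± 0.47 (SD, n = 4) in YWT, 4.85 ± 1.31 (SD, n = 4) in YKO, 1.96 ± 0.61 (SD, n = 4) in OWT and 1.77 ± 0.54 (SD, n = 7) in OKO. Its 8 young libraries lay between 3.54 and 6.37 and its 11 old libraries between 1.10 and 2.68, without overlap. The early list stood at 1.88 ± 0.17 in YWT, 2.08 ± 0.62 in YKO, 2.45 ± 0.78 in OWT and 1.79 ± 0.80 in OKO on the same scale, and all 4 groups overlapped. Within batch 1, however, OKO1 to OKO3 stood at 1.40, 1.04 and 1.01 for the early list, below the lowest young library, YKO4 at 1.51. The OKO libraries of batch 2 ran from 1.69 to 3.29. The throughout list differed between young and old by less than the mature list, with group means of 5.47 ± 0.71 in YWT, 5.75 ± 1.28 in YKO, 4.54 ± 0.71 in OWT and 3.96 ± 1.03 in OKO. Within a library, the mature level minus the early level was between 1.74 and 3.47 in the young libraries and between -1.32 and 0.87 in the old. In bulk libraries, fewer cells that carry a transcript and less of the transcript per cell cannot be told apart.

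**Figure D1:**
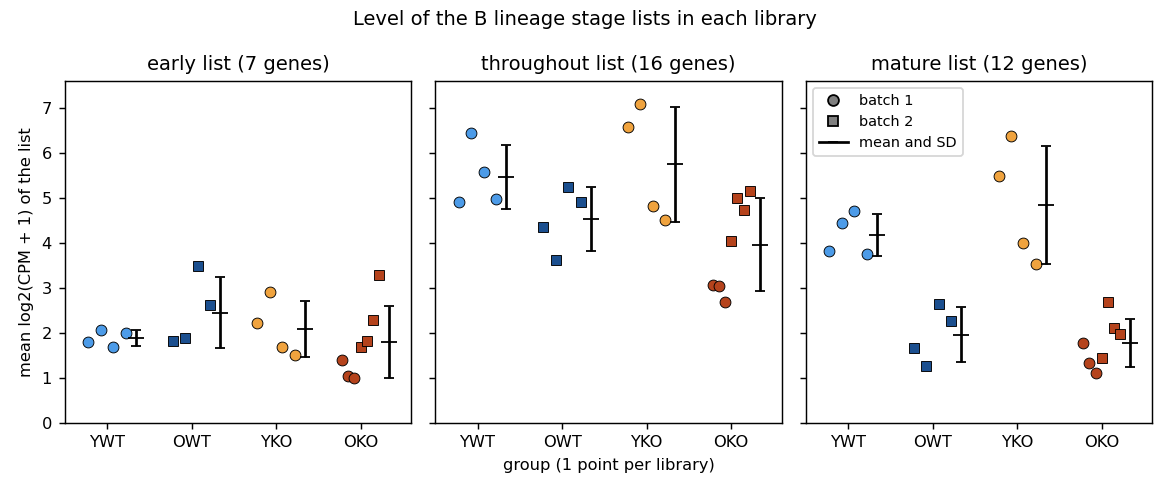
Mean log2(CPM + 1) of the early, throughout and mature lists in each library, with 1 point per library, circles for batch 1, squares for batch 2, and bars for the group mean and SD. The mature list of the 8 young libraries lies between 3.54 and 6.37, above the 11 old libraries, whereas the early list overlaps in all 4 groups.

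Within a group, many of the 35 genes were highest or lowest in the same library. YKO2 was the highest of the 4 YKO libraries for 32 of the 35 genes, and YKO4 was the lowest for 33. In OWT the highest library was OWT3 for 23 genes and the lowest was OWT2 for 24. OKO1 to OKO3, the OKO libraries of batch 1, all lay below OKO4 to OKO7 for 12 genes, namely Ly6d, Vpreb3, Pou2af1, Pou2f2, Ikzf3, Cd79a, Cd79b, Ighm, Blnk, Fcrla, Tnfrsf13c and Fcmr, and 12.4% of all genes tested did so. Rag1 and Cr2 lay the other way, higher in each of OKO1 to OKO3, as did 20% of all genes tested. For 22 of the 35 genes the lowest of the 19 libraries was one of OKO1 to OKO3, and for 28 the highest was a young one. The share of all genes is not given for these counts or for the highest and lowest library within a group. OKO1 to OKO3 had TMM factors of 1.83, 1.24 and 1.41, the largest of the 19 libraries, so they differed beyond these genes. All 8 young libraries lay above all 11 old libraries for 10 genes, Spib, Blk, Ms4a1, Cd22, Fcer2a, Fcmr, Cxcr5, Siglecg, Fcrl1 and Bank1, of which 8 are on the mature list, against 0.113% of all genes tested.

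**Figure D2:**
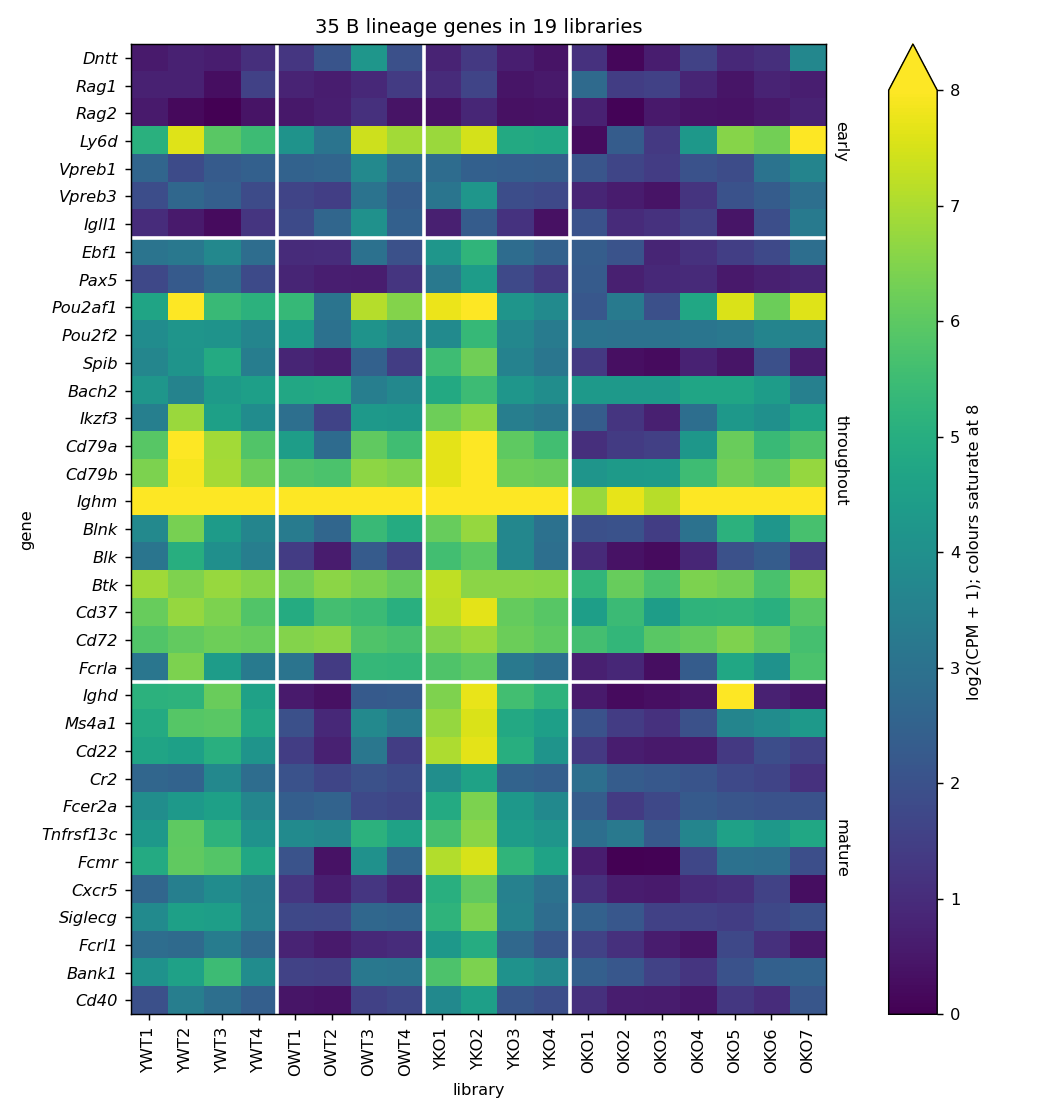
log2(CPM + 1) of the 35 genes (rows, by list) in the 19 libraries (columns, by group), with colours that saturate at 8. Most mature rows are brighter in YWT and YKO than in OWT and OKO, Ighd in OKO5 is bright at 305.0 CPM, and the Ly6d, Pou2af1, Cd79a and Fcrla rows are dark in OKO1 to OKO3.

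Among the genes of priming and recombination, Ly6d, a surface protein of lymphoid progenitors that turn towards the B lineage, was by far the most abundant per length, at group means of 90.9 to 115 CPM per kilobase of exon against 2.7 or less for the others. Ly6d measured 32.7, 193, 60.4 and 44 CPM in YWT1 to YWT4, 16.4, 7.51, 166 and 117 in OWT1 to OWT4, 109.8, 179.7, 27.9 and 26.2 in YKO1 to YKO4, and from 0.181 to 279 with a median of 18.1 in the 7 OKO libraries. The groups overlapped throughout, and OKO1 to OKO3, at 0.181, 3.98 and 1.5 CPM, lay below the other 16 libraries. Dntt, the terminal transferase that adds bases at V(D)J joints, was given in full, like Igll1, after its values were seen. Dntt measured 0.499, 0.651, 0.568 and 1.12 CPM in YWT1 to YWT4, 1.39, 3.24, 17.3 and 2.88 in OWT1 to OWT4, 0.745, 1.51, 0.605 and 0.343 in YKO1 to YKO4, and from 0.112 to 12.1 with a median of 1.12 in the 7 OKO libraries. Its OWT values all exceeded its YWT values, with OWT3 and OKO7, at 17.3 and 12.1 CPM, standing well above the rest. Rag1 and Rag2, which cut the DNA in that process, were low, with Rag1 between 0.221 and 5.74 CPM and Rag2 between 0 and 1.17 CPM. Rag2 had 0 reads in YWT3, where a count of 0 allows a level of up to 0.0473 CPM (3 counts, counting error only).

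The pre-B receptor genes were low in all groups, with group means of at most 8.7 CPM per kilobase of exon. Vpreb1, one part of the surrogate light chain, measured 5.09, 2.56, 3.88 and 4.5 CPM in YWT1 to YWT4, 4.68, 5.16, 12.5 and 6.08 in OWT1 to OWT4, 6.12, 4.46, 4.19 and 4.18 in YKO1 to YKO4, and from 1.69 to 11.3 with a median of 3.05 in the 7 OKO libraries. All groups overlapped. It has a near-identical copy, Vpreb2, and 108 of its exon bases overlap Top3b on the opposite strand, so its count is uncertain. Igll1, the other part, measured 1.03, 0.507, 0.189 and 1.33 CPM in YWT1 to YWT4, 2.5, 5.17, 15.4 and 4.52 in OWT1 to OWT4, 0.639, 4.05, 1.27 and 0.274 in YKO1 to YKO4, and from 0.383 to 8.52 with a median of 1.84 in the 7 OKO libraries. Its OWT libraries all lay above its YWT libraries, and as with Dntt the highest were OWT3 and OKO7. Vpreb3, which assists the assembly of the receptor, ran from 0.341 CPM in OKO3 to 17.3 in YKO2. Within OWT, OWT3 was the highest library for 6 of the 7 early genes, and within OKO it was OKO7 for 6 of 7, with Rag1 the exception in both groups. YKO2 was the highest YKO library for 6 of 7, with Vpreb1 the exception.

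Of the transcription factors, edgeR called Ebf1, Pax5 and Spib lower in OKO than in YKO over all libraries, and DESeq2 also called Pou2f2. Within batch 1, Pou2f2, Pou2af1 and Ikzf3 were called lower too and Pax5 was not (edgeR adjusted p = 0.0677). That fit called 11.6% of all genes lower, against 0.692% over all libraries. Without YKO1 or without YKO2 neither Ebf1 nor Pax5 was called. Ebf1, which opens the B cell program, measured 7.45, 8.23, 12.4 and 6.22 CPM in YWT1 to YWT4, 0.962, 1.03, 6.99 and 3 in OWT1 to OWT4, 17.3, 36.7, 6.09 and 4.58 in YKO1 to YKO4, and from 0.759 to 6.37 with a median of 2.37 in the 7 OKO libraries. Groups of different age overlapped for Ebf1, since OWT3 and OKO7 reached the range of the lower young libraries. Pax5, which commits cells to the lineage, measured 2.3, 3.76, 5.86 and 2.51 CPM in YWT1 to YWT4, 0.792, 0.593, 0.544 and 1.36 in OWT1 to OWT4, 8.46, 20.5, 2.4 and 1.53 in YKO1 to YKO4, and from 0.447 to 3.95 with a median of 0.784 in the 7 OKO libraries. OKO1 alone reached the young range for Pax5, and 636 of the exon bases of Pax5 overlap 5730488B01Rik on the opposite strand. Spib, an Ets factor of B cells and plasmacytoid dendritic cells, measured 11.7, 16.6, 28.6 and 9.56 CPM in YWT1 to YWT4, 0.792, 0.578, 4.58 and 1.74 in OWT1 to OWT4, 44.4, 76.3, 10.6 and 7.73 in YKO1 to YKO4, and from 0.17 to 2.83 with a median of 0.523 in the 7 OKO libraries. No old library reached a young one for Spib. Bach2, which holds back plasma cell formation, ran between 9.8 and 43.5 CPM, and 537 of its exon bases overlap the antisense gene Bach2os. Pou2f2, Pou2af1 and Ikzf3, which also act in B cells that have met antigen, reached 39.7 CPM in YKO2, 359 in YWT2 and 109.6 in YWT2.

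The antigen receptor was led by Ighm, the IgM heavy chain, which was the most abundant of the 35 genes also per length, at 25339 CPM per kilobase of exon in YWT against 111 for Ly6d, 90.4 for Cd79b and 86.0 for Cd79a. Ighm measured 6513, 164540.0, 10245 and 9856 CPM in YWT1 to YWT4, 12726, 2223, 45729 and 38939.9 in OWT1 to OWT4, 59916, 38295, 3526 and 3374 in YKO1 to YKO4, and from 109 to 46391 with a median of 7311 in the 7 OKO libraries. YWT2 lay far above the other YWT libraries, and OKO1 to OKO3, at 109, 208 and 141 CPM, lay below the other 16 libraries. Cd79b, a signalling chain of the receptor, measured 83.8, 238, 121 and 74.8 CPM in YWT1 to YWT4, 56.1, 52.4, 98 and 88.1 in OWT1 to OWT4, 203, 319, 73.6 and 71.1 in YKO1 to YKO4, and from 17 to 105 with a median of 44.8 in the 7 OKO libraries. The highest old library passed the lowest young ones, and OKO1 to OKO3 were again the lowest, with OKO1 at 17 CPM. Blk, a Src family kinase of B cells, measured 7.57, 31.5, 14.7 and 9.7 CPM in YWT1 to YWT4, 1.7, 0.517, 3.96 and 1.91 in OWT1 to OWT4, 46.8, 62.6, 12 and 6.65 in YKO1 to YKO4, and from 0.186 to 4.06 with a median of 0.926 in the 7 OKO libraries. Each young library lay above each old one for Blk. Bank1, an adaptor of the mature receptor, measured 15.8, 22.9, 43.3 and 13.8 CPM in YWT1 to YWT4, 2, 1.87, 8.29 and 7.83 in OWT1 to OWT4, 54, 84.2, 16 and 12.1 in YKO1 to YKO4, and from 1.36 to 4.7 with a median of 3.48 in the 7 OKO libraries. It also did not overlap between young and old. Btk and Blnk, the kinase and the linker that pass the signal on, and Cd79a ran from 37.3 to 150.4, from 1.75 to 106 and from 1.13 to 437 CPM.

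Surface receptors of the mature B cell gave the clearest order. Cd22, an inhibitory lectin that tunes the receptor (mm10 chromosome 7, 30865402 to 30880342, minus strand), measured 24.8, 22.3, 32 and 16.7 CPM in YWT1 to YWT4, 1.75, 0.669, 7.95 and 1.76 in OWT1 to OWT4, 129, 204, 31.2 and 16.8 in YKO1 to YKO4, and from 0.465 to 2.72 with a median of 1.49 in the 7 OKO libraries. Its lowest young library, YWT4, was above its highest old library, OWT3, and YKO1 and YKO2 stood far above all others. On the opposite strand 479 of its exon bases overlap Gm29439. Cxcr5, the chemokine receptor that leads B cells into follicles (mm10 chromosome 9, 44511787 to 44561877, minus strand), measured 5.25, 9.89, 13.7 and 10.3 CPM in YWT1 to YWT4, 1.39, 0.593, 1.42 and 0.788 in OWT1 to OWT4, 32, 65.5, 10.5 and 7.1 in YKO1 to YKO4, and from 0.241 to 2.01 with a median of 0.953 in the 7 OKO libraries. Fcer2a, the low-affinity IgE receptor CD23 (mm10 chromosome 8, 3681737 to 3694175, minus strand), measured 14.3, 19.1, 22.2 and 11.8 CPM in YWT1 to YWT4, 4.26, 4.87, 2.37 and 2.2 in OWT1 to OWT4, 28.4, 85.2, 18.3 and 12.9 in YKO1 to YKO4, and from 1.62 to 4.17 with a median of 3.04 in the 7 OKO libraries. Both showed the order of Cd22, with young above old throughout. Fcmr, the receptor for IgM, measured 28.8, 64.6, 56.4 and 26.1 CPM in YWT1 to YWT4, 3.17, 0.304, 15.6 and 5.13 in OWT1 to OWT4, 133, 180.2, 36.9 and 23.8 in YKO1 to YKO4, and from 0.0186 to 6.83 with a median of 2.25 in the 7 OKO libraries. OKO2 and OKO3 hold 1 and 2 reads of Fcmr. Ms4a1, which encodes CD20, measured 28.5, 57.9, 60.9 and 26.7 CPM in YWT1 to YWT4, 2.84, 0.897, 12.5 and 8.75 in OWT1 to OWT4, 105, 185, 27.4 and 21.8 in YKO1 to YKO4, and from 1.19 to 19.2 with a median of 3 in the 7 OKO libraries. Its old libraries reached 19.2 CPM in OKO7 and its young ones began at 21.8 in YKO4, which left a narrow gap.

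Siglecg, an inhibitory lectin of B cells, measured 13.1, 22.3, 21.2 and 10.4 CPM in YWT1 to YWT4, 2.29, 2.25, 5.32 and 5.01 in OWT1 to OWT4, 36, 83.9, 11 and 6.19 in YKO1 to YKO4, and from 1.72 to 4.55 with a median of 2.31 in the 7 OKO libraries. Fcrl1, an Fc receptor-like protein of B cells, measured 6.2, 5.74, 9.24 and 5.47 CPM in YWT1 to YWT4, 0.736, 0.487, 0.879 and 1.01 in OWT1 to OWT4, 18.2, 30.1, 5.46 and 3.43 in YKO1 to YKO4, and from 0.354 to 2.3 with a median of 1.15 in the 7 OKO libraries. Each kept young above old, with YKO4 the lowest young library for both. Cr2, the complement receptor CD21, measured 5.24, 4.85, 12.3 and 6.33 CPM in YWT1 to YWT4, 3.03, 2.19, 2.97 and 2.56 in OWT1 to OWT4, 14.6, 23.7, 4.9 and 4.3 in YKO1 to YKO4, and from 1.19 to 6.61 with a median of 3.19 in the 7 OKO libraries. Young and old overlapped for Cr2, since OKO1 reached the young range. Cd40, which receives help from T cells, measured 2.89, 9.82, 6.56 and 4.33 CPM in YWT1 to YWT4, 0.382, 0.304, 1.9 and 2.25 in OWT1 to OWT4, 13, 21.8, 3.42 and 2.79 in YKO1 to YKO4, and from 0.395 to 3.4 with a median of 1.04 in the 7 OKO libraries. Here OKO7 passed the lowest young libraries. Cd37, a tetraspanin found on mature B cells and other blood cells, measured 69.9, 107, 84 and 56 CPM in YWT1 to YWT4, 29.4, 47.8, 42.7 and 31.8 in OWT1 to OWT4, 144, 201, 67.7 and 60.3 in YKO1 to YKO4, and from 20.7 to 59.4 with a median of 35.7 in the 7 OKO libraries. The old libraries of Cd37 lay below the young ones but for OKO7, at 59.4 CPM, which passed YWT4. Tnfrsf13c, the receptor for the survival factor BAFF, ran from 3.75 CPM in OKO3 to 94.3 in YKO2, Fcrla from 0.232 to 84.7, and Cd72, another inhibitory receptor, only from 38.4 to 107. Cd72 shares 1423 exon bases with Tesk1 on the opposite strand, and the use of strand in counting is not given in the sources used here.

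OWT vs YWT asks for the effect of age in WT HSCs. By the edgeR quasi-likelihood test of all 19 libraries, where a call needs an adjusted p below 0.05 together with more than 1.5-fold change, 0 of the 35 genes were called, and 0.00297% of the 33690 genes tested were. At an unadjusted p under 0.05, 16 of the 35 were lower and 2 higher in OWT. Here and below, the share of all genes at that threshold is not given, so such counts have no background. DESeq2 called 6, all lower, namely Cd22, Fcer2a, Cxcr5, Siglecg, Fcrl1 and Bank1, against 0.0666% of all genes called lower by DESeq2. All 12 mature genes had a negative log2 fold change, from -4.26 to -0.68 with a median of -2.55, where the median of all genes tested was -0.05. The throughout list had 14 of 16 negative values with a median of -0.88, and the early list 1 of 7 with a median of 0.83. Every OWT library lay below every YWT library for 15 genes, 11 of them mature, against 1.9% of all genes, and above for 2, Dntt and Igll1, against 2.24% of all genes. Among the mature genes Cxcr5 stood at -3.22 (SE 0.63, edgeR adjusted p = 0.121, DESeq2 adjusted p = 3.18e-05). Fcer2a stood at -2.30 (SE 0.46, edgeR adjusted p = 0.131, DESeq2 adjusted p = 0.000167). On the other side Igll1 stood at 3.17 (SE 0.88, edgeR adjusted p = 0.427, DESeq2 adjusted p = 0.0676) and Dntt at 3.12 (SE 1.01, edgeR adjusted p = 0.665, DESeq2 adjusted p = 0.177). With a batch term in the fit Dntt stood at 0.44 (SE 1.21) and Igll1 at 2.21 (SE 1.19), and the median of the early list was 0.44 where that of all genes was 0.19. That term is set by OKO alone, the only group in both batches. These values are therefore OWT vs YWT less the gap between the OKO libraries of the batches. Mature genes moved both ways, with Ighd at -12.2 and Cr2 at -0.33, against -4.26 and -1.42 without the term. No batch holds both groups, so no value within a batch exists. Without YKO1 and YKO2, which enter this comparison through the shared estimate of the spread, edgeR called 3 genes lower, Fcer2a, Cxcr5 and Fcrl1, against 0.0155% of all genes.

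OKO vs YKO asks for the effect of age in knockout HSCs, and it is the comparison in which genes of the lineage were called. In OKO 15 of the 35 genes fell, against 0.692% of all genes called lower and 1.29% called in either direction, and 0 rose. They were 10 of the 12 mature genes (Ms4a1, Cd22, Cr2, Fcer2a, Fcmr, Cxcr5, Siglecg, Fcrl1, Bank1 and Cd40, not Ighd and Tnfrsf13c), 5 of the 16 throughout genes (Ebf1, Pax5, Spib, Blk and Cd37) and 0 of the 7 early genes. The median log2 fold change was -3.61 for the mature list, -1.64 for the throughout list and -0.07 for the early list, where the median of all genes was 0.23. By role, 7 of the 8 activating or survival receptors, 3 of the 5 inhibitory or Fc receptor-like genes, 3 of the 7 transcription factors and 2 of the 8 receptor and signalling genes fell. DESeq2 called 20, all lower, against 1.55% of all genes, and these include each of the 15. Every OKO library lay below every YKO library for 11 genes, 8 of them mature, against 1.48% of all genes.

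In that comparison Cd22 fell by 6.18 on the log2 scale (SE 0.68, edgeR adjusted p = 4.07e-05). Spib fell by 5.26 (SE 0.73, edgeR adjusted p = 0.000604) and Fcmr fell by 5.10 (SE 0.98, edgeR adjusted p = 0.0112). Cxcr5 fell by 4.95 (SE 0.54, edgeR adjusted p = 4.07e-05) and Fcer2a fell by 3.57 (SE 0.39, edgeR adjusted p = 4.07e-05). The other 10 lay between -4.36 (Blk) and -1.73 (Cd37), with Cr2, at an edgeR adjusted p of 0.0322, nearest to the threshold. Ighm, with a log2 fold change of -0.69 and an SE of 1.27, and Ly6d, at -0.35 with an SE of 1.11, were not called. Dntt and Igll1 stood at 1.68 (SE 0.90) and 0.77 (SE 0.74), not called. Within batch 1 Dntt turned to -0.28 and Igll1 stood at 0.22. With a batch term, which sets the same libraries against each other, Dntt and Igll1 stood at -0.36 and 0.14.

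The number of calls rested largely on YKO1 and YKO2, which were left out after their high values were seen, so smaller falls were set in advance. Without both, 3 genes remained called, Cd22, Fcer2a and Cxcr5, against 0.0413% of all genes called lower, and the median of the mature list was -1.81 where that of all genes was 0.59. Within batch 1, OKO1 to OKO3 against the 4 YKO libraries, 26 genes were called lower, against 11.6% of all genes, with 11 mature, 13 throughout and 2 early genes, Ly6d and Vpreb3. These hold 13 of the 15 genes called over all libraries, without Cr2 (edgeR adjusted p = 0.0854) and Pax5. There Ighm stood at -0.69 over all OKO libraries and at -7.36 within the batch (edgeR adjusted p = 0.00696), and Cd22 at -6.18 and -6.77 (edgeR adjusted p = 0.00115). With a batch term in the fit 28 genes were called lower, against 13.4% of all genes, 14 of the 15 among them and Cr2 not. Since only OKO spans both batches, that fit again sets OKO1 to OKO3 against YKO. It is not independent of the comparison within batch 1. Without OKO1 to OKO3, 12 genes were called lower, against 0.3% of all genes, 8 of them mature and 4 throughout.

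**Figure D3:**
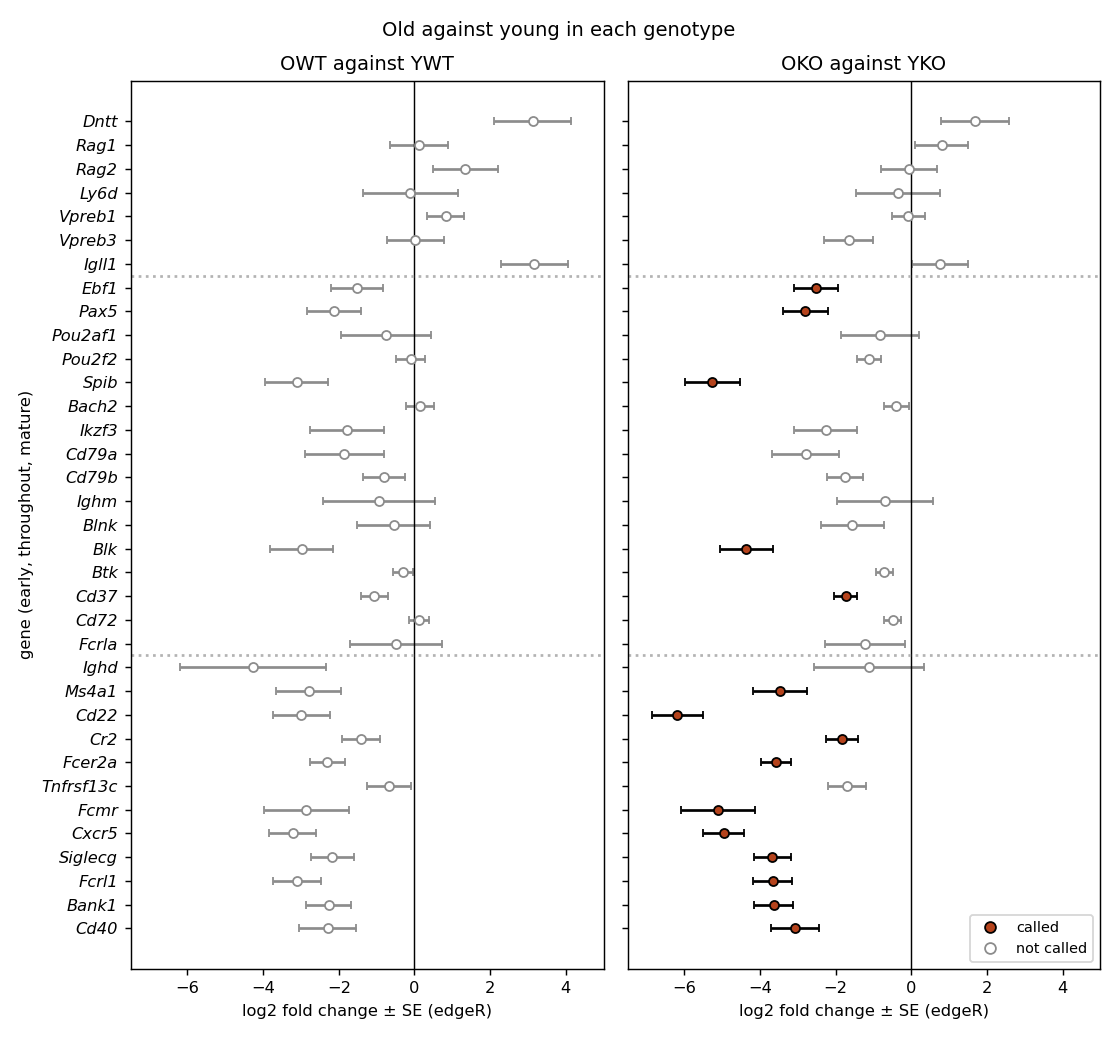
log2 fold change with its SE for each of the 35 genes in OWT against YWT (left) and OKO against YKO (right), with filled points for called genes and dotted lines between the early, throughout and mature lists. The 15 called genes all lie on the right, between -6.18 and -1.73, and on the left Dntt and Igll1 stand above 3 and all 12 mature genes below 0.

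YKO vs YWT, all within batch 1, asks for the effect of the knockout at young age, and 0 of the 35 genes were called by edgeR, against 0.0267% of all genes, and 0 by DESeq2. At an unadjusted p under 0.05, 3 genes were higher in the libraries labelled YKO, Cd22, Fcer2a and Cxcr5. The log2 fold change was positive for 34 of the 35 genes, with medians of 1.06 for the mature, 0.46 for the throughout and 0.24 for the early list. Cd22 stood at 1.99 (SE 0.71, edgeR adjusted p = 0.79), with YKO1 and YKO2 above the YWT range and YKO3 and YKO4 within it. YKO2 was the highest YKO library for 32 of the 35 genes and YKO1 for the other 3. Both were left out after their values were seen, so lower medians without them were set in advance. With YKO3 and YKO4 alone the medians were -0.63, -0.86 and -0.58, which is no test of direction, and the median of all genes in that fit is not given. The level of the mature list was 4.00 in YKO3, within the YWT range of 3.74 to 4.71, and 3.54 in YKO4, below it.

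OKO vs OWT asks the same at old age, and again 0 of the 35 genes were called by edgeR, against 0.0327% of all genes, and 0 by DESeq2. At an unadjusted p under 0.05, Ighd was higher and Pou2f2 lower in OKO. The medians were -0.17 for the mature, -0.32 for the throughout and -0.66 for the early list, where the median of all genes was 0.12. Within batch 2, OKO4 to OKO7 against OWT, they were -0.03, 0.12 and -0.48, and 0 genes were called. The interaction of genotype and age called 0 of the 35 genes and 0% of all genes by edgeR, and 0 of the 35 by DESeq2. At an unadjusted p under 0.05, 4 of the 35 had a negative interaction term, 3 of them mature. A larger fall in knockout than in WT HSCs is therefore not shown, and the 2 age comparisons share no library.

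Ighd and Ighm, whose constant regions lie side by side on chromosome 12 (mm10, chromosome 12, 113406604 to 113416324, minus strand for Ighd and chromosome 12, 113418558 to 113422730, minus strand for Ighm), are made from one primary transcript in the mature naive B cell. Ighd measured 34.3, 34.9, 71.4 and 23.1 CPM in YWT1 to YWT4, 0.495, 0.274, 3.81 and 3.99 in OWT1 to OWT4, 87.1, 213, 47.2 and 34.7 in YKO1 to YKO4, and from 0.167 to 305 with a median of 0.402 in the 7 OKO libraries. OKO5 stood at 305 CPM, whereas the other 6 OKO libraries lay between 0.167 and 0.671 CPM. OKO5 was also the highest OKO library for Fcmr, at 6.83 CPM, and Fcrl1, at 2.3 CPM, but not for the remaining mature genes, with Cd22 at 1.53 CPM. Ighd stood at -4.26 in OWT vs YWT (SE 1.92, edgeR adjusted p = 1) and at -1.12 in OKO vs YKO (SE 1.45, edgeR adjusted p = 0.724). Without OKO5 Ighd was called lower in OKO, but leaving out its highest OKO library favours that call in advance.

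The number of Ighd reads per 1000 Ighm reads, which no scaling between libraries enters, was 5.26, 0.212, 6.97 and 2.35 in YWT1 to YWT4 and 0.0389, 0.123, 0.0833 and 0.102 in OWT1 to OWT4. In YKO1 to YKO4 it was 1.45, 5.56, 13.4 and 10.3, and in OKO it ran from 0.00989 in OKO7 to 6.57 in OKO5 with a median of 0.804. OKO1 to OKO3, of batch 1 like all young libraries, stood at 4.45, 0.804 and 1.87, within the range of the young libraries. OKO4, OKO6 and OKO7, of batch 2 like OWT, stood at 0.0503, 0.0354 and 0.00989, below all young libraries. The part of batch in this ratio was not tested. All OWT libraries lay below all YWT libraries, although Ighm itself overlapped. On the log2 scale OWT minus YWT was -4.69 (two-sided exact permutation p = 0.0286, which is also the lowest value that 4 against 4 libraries can reach, and 0.114 adjusted over 4 comparisons). OKO minus YKO was -4.01 (two-sided exact permutation p = 0.0606, adjusted p = 0.121), and -4.71 without OKO5. OKO5 held the highest OKO ratio, so a larger fall without it was set in advance and is no test. YKO minus YWT was 1.48 (exact permutation p = 0.343, adjusted p = 0.343) and OKO minus OWT was 2.17 (exact permutation p = 0.285, adjusted p = 0.343), and the groups overlapped. In OKO1 to OKO3 the ratio rests on 24, 9 and 17 Ighd reads.

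**Figure D4:**
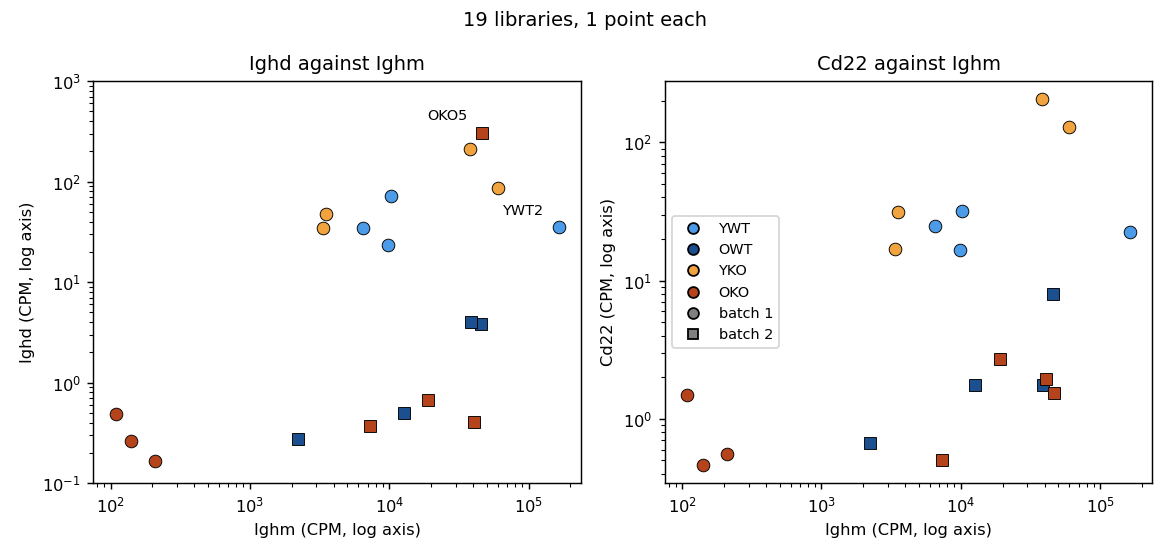
Ighd (left) and Cd22 (right) against Ighm in CPM on log axes, with 1 point per library, colours for groups, circles for batch 1 and squares for batch 2. At an Ighm level of 2223 to 46391 CPM the batch 2 libraries of OWT and OKO hold Cd22 at 0.504 to 7.95 CPM, whereas the young libraries hold it at 16.7 to 204 CPM, and OKO5 is the one old library whose Ighd does not lie below the young libraries.

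Markers of other cells moved with some of these values. The 8 plasma cell markers, such as Jchain and Sdc1, summed to 1333 to 27068 CPM in YWT, 438 to 2936 in OWT, 760 to 13792 in YKO and 126 to 4740 in OKO, with 126 to 366 in OKO1 to OKO3, and 0 of the 8 were called in any of the 4 comparisons. Jchain, which joins secreted IgM, was 24827 CPM in YWT2, the library with the highest Ighm, and 27.6 to 103 in OKO1 to OKO3, the libraries with the lowest. The 4 light chain constant genes ran from 128 to 918 CPM in OKO1 to OKO3 and from 1677 to 124190 in the other 16 libraries. Of the 8 T cell markers Cd3e and Cd4 were called lower in OKO vs YKO, and their sum was 50.8 to 120 CPM in YKO and 27.9 to 58.4 in OKO, where the sum is over the 8. In YKO vs YWT 7 of the 8 were higher at an unadjusted p under 0.05, edgeR called 0 and DESeq2 called 1, and the median log2 fold change was 2.14. Cd3e was 23.9 and 16 CPM in YKO1 and YKO2, the libraries on which the higher B lineage values of YKO rest, and 4.61 or less in the other 17. Of the 8 HSC markers 7 had a positive log2 fold change in OKO vs YKO, with a median of 0.60, edgeR called 0, 4 were higher at an unadjusted p under 0.05, and DESeq2 called 2 higher. Between OWT and YWT all 8 were positive (median 0.54) and 2 had an unadjusted p under 0.05, but neither edgeR nor DESeq2 called any. Of the 8 erythroid markers 5 were called lower in OKO vs YKO, with sums of 1609 to 4693 and 35.6 to 2509 CPM, and Alas2 was called higher in YKO vs YWT. The 8 granulocyte markers were called in 0 comparisons, with sums of 75.1 to 241 CPM in YWT, 300.3 or more in OWT, 9.15 to 277 in YKO and 30.1 to 314 in OKO. In OWT vs YWT all 8 were positive (median 1.74), and 5 had an unadjusted p under 0.05. In OKO vs OWT all 8 were negative, between -2.08 (Elane) and -1.09 (Retnlg). Siglech, the defining marker of plasmacytoid dendritic cells, was between 0.0608 and 2.26 CPM, and its list of 8 was called in 0 comparisons, with sums of 127 to 591 CPM. No gene of these lists had 0 reads in a whole group. Their part in the differences of the B lineage genes was not tested.

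Other genes of B cell receptor signalling and of the lymphoid progenitor followed in part. Of 24 signalling genes 3 fell in OKO vs YKO and 0 rose, against 0.692% of all genes called lower. The median log2 fold change of the 24 was -0.31, and that of all genes is given above. One of those that fell was Prkcb, a kinase that links the receptor to NF-kB, with a log2 fold change of -1.62 (SE 0.30, edgeR adjusted p = 0.00772). Of 20 regulators of the lymphoid progenitor 3 fell and 0 rose, against the same share of all genes, with a median of -0.17. Id3, an inhibitor of E proteins, fell by 2.72 (SE 0.40, edgeR adjusted p = 0.00109). Irf8, a factor of B cells and monocytes, fell by 2.36 (SE 0.42, edgeR adjusted p = 0.00576), and Ikzf1, which is used in HSCs and all lymphoid cells, fell by 0.92 (SE 0.23, edgeR adjusted p = 0.0492). In the other 3 comparisons 0 genes of either list were called by edgeR, and at an unadjusted p under 0.05 both lists together had between 2 and 10.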

How the data were processed

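RNA-seq of sorted HSCs was analysed in 19 libraries, and the 10 WGBS samples were not analysed here. After trimming with Trim Galore 0.4.3, the authors used STAR with a GENCODE M22 index of mm10 and featureCounts, and what they deposited is a raw read count for each gene symbol, not normalized. Whether strand was used is not given in the sources used here, so overlapping genes carry extra uncertainty. Gene positions and exon lengths are those of GENCODE M21 on mm10, and the promoter windows are those of RefSeq.

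Counts were filtered with filterByExpr, normalized by TMM, and tested with the edgeR 4.0.16 quasi-likelihood test (R 4.3.3) in a single fit with the 19 libraries and a mean for each of the 4 groups, with Benjamini-Hochberg adjustment over all genes tested. DESeq2 1.42.0, which the study's methods name, was an alternative. The other alternatives were 2 normalizations, 2 filters, the adjusted p alone, robust dispersions, the compared groups only, a batch term, OKO of 1 batch, a replicate block and leaving out each library. Leaving out YKO1 and YKO2, leaving out OKO1 to OKO3, and scaling without the immunoglobulin genes were added after the data were seen. Log values are log2(CPM + 1). The pipeline was tested on simulated data.

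The genes, lists and tests were chosen with earlier results of these data known. Given by library, with the range and median for OKO, were genes called in any comparison and the 2 most abundant of each list, and Dntt and Igll1 were added after their values were seen. Library totals of 22197555 to 77970627 counts set the counting error, which is small beside the spread between libraries except for genes under 1 CPM. No 2 libraries of a group were the same within sampling noise. Same-numbered libraries did not vary together (24 pairs, median correlation -0.12, 2 over 0.1), so numbers were not used as pairs. Values of some signalling genes are not reported here.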

Additional observations from a re-analysis of the deposited data

Results flagged for a closer look

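Among 92 groups of values, 20 genes and 3 list levels in each of 4 groups, the gap of 1 library to the nearest other was large for the range of its group in 4, where chance gives about 4.6. Ighm was 164540.0 CPM in YWT2 and 6513 to 10245 in the other YWT libraries. Ighd was 305 CPM in OKO5 and 0.167 to 0.671 in the other OKO libraries, on 19114 reads. Pax5 was 3.95 CPM in OKO1 and 0.447 to 0.926 in the other OKO libraries. Vpreb1 was 6.12 CPM in YKO1 and 4.18 to 4.46 in the other YKO libraries, a difference of less than 1.5 times. No gene of the 35 moved without overlap in opposite directions in the 2 genotypes or at the 2 ages.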

How the results depend on the processing

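The 15 genes called in OKO vs YKO became 28 with a batch term, 26 with OKO of batch 1 only, and 3 without YKO1 and YKO2. With the replicate block they were 21, without Cr2 and Pax5, and with the remaining alternatives between 11 and 20. The share of all genes called is not given for the replicate block or the compared groups only. For OWT vs YWT it is not given with a batch term either. The batch term rests on OKO alone, the only group in both batches. In OKO vs YKO its fit therefore compares the same libraries as OKO of batch 1 only. Leaving out 1 library at a time gave between 10 and 20, with 10 without YKO1 or without YKO2, which lost Cd40, Cr2, Ebf1, Ms4a1 and Pax5, and 20 without OKO7. The 0 called in OWT vs YWT became 6 with DESeq2, 3 with the compared groups only, 2 with a batch term, 3 without YKO1 and YKO2, and between 0 and 1 on leaving out 1 library, with 1 without YKO2. In YKO vs YWT, OKO vs OWT and the interaction, 0 were called in each alternative, the replicate block included, and between 0 and 0 on leaving out 1 library. All calls among the 35 genes were decreases. DESeq2 moved the median of all genes in OKO vs YKO from 0.23 to 0.44, and the medians of the lists by less than 0.1. Cd22, Fcer2a and Cxcr5 were called in OKO vs YKO in each alternative run. Genes such as Rag2, under 1 CPM in most libraries, cannot be followed at this depth. The cause of these shifts was not tested.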

Other observations

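Flt3, a receptor of early lymphoid progenitors that the sort selects against, was 6.92 CPM in YKO1 and 30.5 in OWT2, the extremes of the 19 libraries. Il7r, the receptor on which mouse B cell precursors depend and which the sort also selects against, was between 0.289 CPM in YWT2 and 4.31 in YKO1. Xbp1, the factor of secretory plasma cells, was 1242 CPM in YWT2 and 1259.8 in OKO5, the highest libraries, and 87.3 in OKO1, the lowest. These values belong to no comparison.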
